A study of Mus with 7 samples.

Results

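The Ifi200, or p200, family is a cluster of interferon-inducible genes on mouse chromosome 1. The 8 genes described here, Ifi202b, Ifi203, Ifi204, Ifi205, Ifi207, Ifi209, Ifi211 and Mndal, were chosen by name from the 31053 genes of the deposited count tables with earlier results of these data known. They were followed in fetal liver-derived macrophages (FLMs), self-renewing macrophages grown from the livers of wild-type C57BL/6J mouse fetuses and kept in GM-CSF (30 ng/mL). Con cells stood in 10% fetal bovine serum (FBS) without fatty acid, bovine serum albumin (BSA) or lipopolysaccharide (LPS). The Veh groups were held for 24 h in 0.25% FBS with 8.3 µM BSA, and the DHA groups in the same medium with 25 µM docosahexaenoic acid (DHA), an omega-3 fatty acid, on the BSA. Cells were then collected without LPS (0 h) or treated with LPS, a bacterial cell wall product that activates TLR4, at 20 ng/mL for 1 or 4 h. This gave Veh.LPS.0, DHA.LPS.0, Veh.LPS.1, DHA.LPS.1, Veh.LPS.4 and DHA.LPS.4.

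Proteins of the p200 family carry HIN-200 domains, which bind double-stranded DNA, and most also carry a pyrin domain, through which they meet partners of innate immune signalling. Their genes are induced by type I interferon, and in macrophages the family is known for sensing DNA in the cytosol and nucleus and for tuning the interferon and inflammasome responses to it. Ifi202b encodes p202, which lacks a pyrin domain and is known to oppose the DNA-sensing inflammasome receptor Aim2.

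Each of the 7 conditions was 1 library of single cells, so the differences below have no replicate check and carry no p-value. The intervals are exact 95% intervals that cover counting error only. A total of 11640 cells passed the filter, 692 to 3073 per library, with a median of 29369 to 56239 unique molecular identifiers (UMIs) per cell. The libraries stood apart before any gene was compared: 74.4% to 80.0% of the deposited barcodes of the DHA libraries had 20% or more of their UMIs from mitochondrial genes and were left out, against 29.0% in Con and 35.8% to 54.7% in the Veh libraries. All 9 macrophage markers were found in every library, at a summed 5817 to 7089 CPM (each gene's UMIs scaled to 1000000 UMIs per library), and no cell held 3 markers of another cell type. Hepatocyte markers summed to 5.48 to 7.71 CPM, neutrophil markers to 0.0571 to 6.99 CPM, and mast cell markers were at 0. A barcode found in more than 1 library was carried by 32 cells (16 barcodes). Higher RNA per cell and more cells with the RNA cannot be told apart in a summed library. Shares of cells are therefore given beside the levels of all members but the sparse Ifi205 and Ifi209. Those shares were read after each cell was thinned to 20000 UMIs.

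The members lie between positions 173630859 and 174031755 of chromosome 1 in GRCm38.p6, the assembly that corresponds to the mm10 build of the files. Within these 401 kb the order was Ifi209, Ifi207, Ifi204, Mndal, Ifi211, Ifi203, Ifi202b and Ifi205. Ifi202b spans 173962569 to 173982844, next to Ifi203 at 173920400 to 173942866. The members are alike in sequence and may share reads, so the values of single genes are less certain than their sum.

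Summed over the 8 members, the family stood at 161 CPM in Con, 433 in Veh.LPS.0, 574 in DHA.LPS.0, 362 in Veh.LPS.1, 561 in DHA.LPS.1, 957 in Veh.LPS.4 and 636 in DHA.LPS.4. Con was thus lowest and Veh.LPS.4 highest, and the order of the Veh and DHA libraries turned over between 1 and 4 h of LPS.

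**Figure D1:**
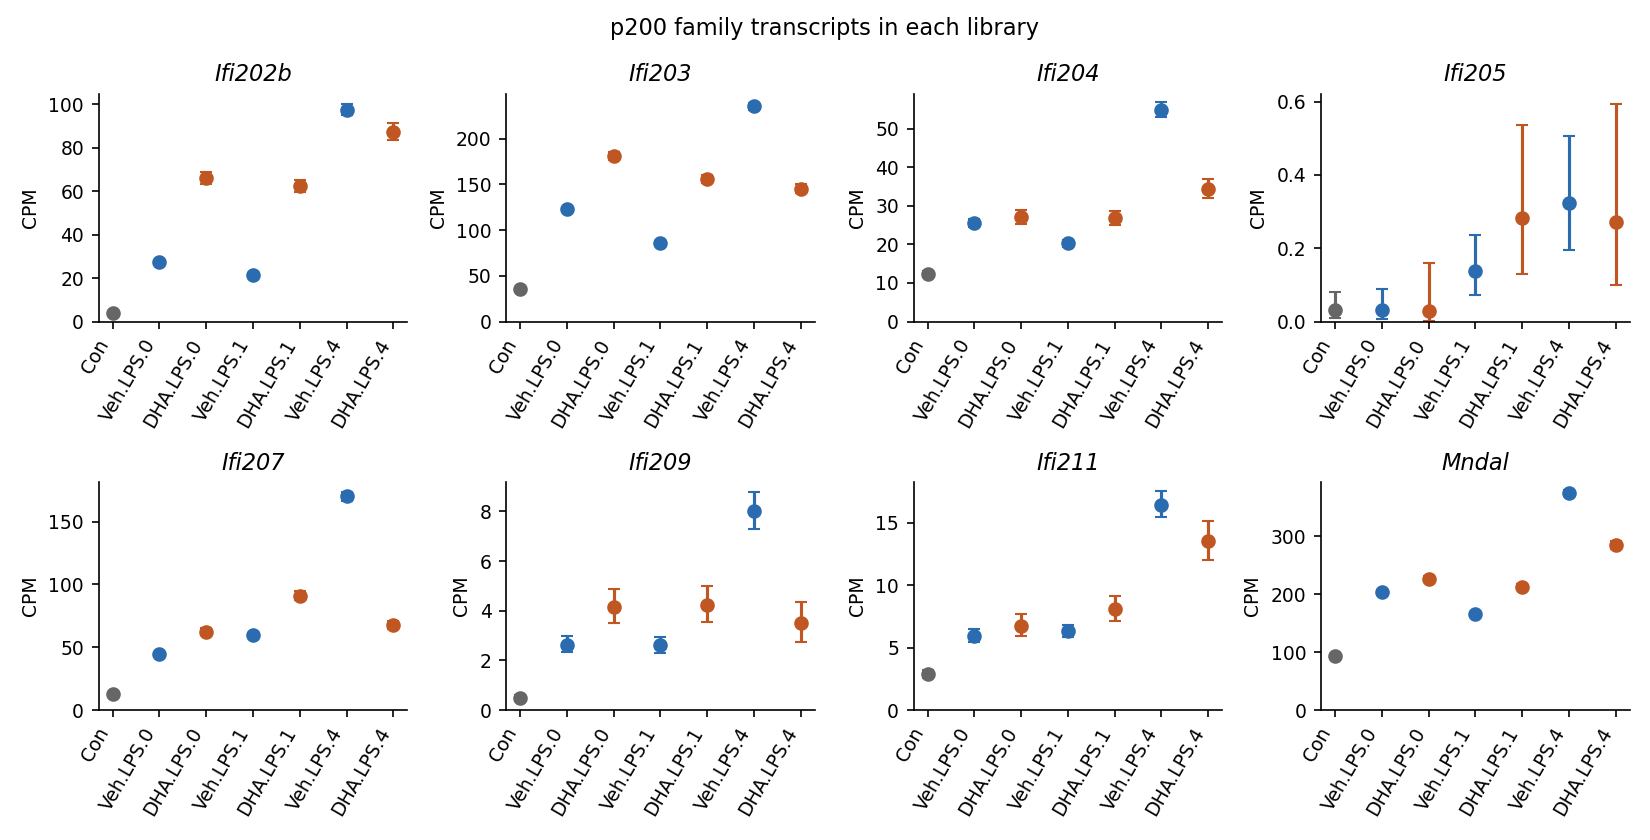
Level of each member in the 7 libraries, in CPM on a linear axis from 0 (each panel has its own scale). Points are single libraries (grey Con, blue Veh, orange DHA) and bars are exact 95% Poisson intervals. Ifi202b ran from 3.98 CPM in Con to 97.5 in Veh.LPS.4. The DHA points lie above the Veh points at 0 and 1 h in 7 panels and below them at 4 h in all 8. Ifi205 rests on too few UMIs to compare DHA with vehicle. At 0 h the DHA to Veh ratios of Ifi204 and Ifi211 have intervals that include 1.

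Ifi202b, the member without a pyrin domain, was measured at 3.98 CPM in Con, 27.3 in Veh.LPS.0, 66.1 in DHA.LPS.0, 21.5 in Veh.LPS.1, 62.4 in DHA.LPS.1, 97.5 in Veh.LPS.4 and 87.1 in DHA.LPS.4. Both DHA libraries of 0 and 1 h were well above their Veh counterparts, and at 4 h the Veh and DHA libraries were close in these filtered cells. Thinned cells with a UMI of Ifi202b made up 6.40% of Con. They made up 30.9% of Veh.LPS.0, 43.4% of DHA.LPS.0, 24.5% of Veh.LPS.1 and 42.6% of DHA.LPS.1. At 4 h the share was 59.7% with vehicle and 51.6% with DHA.

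Ifi204 encodes p204, the mouse protein most often set beside human IFI16, which senses DNA upstream of STING. It stood at 12.4 CPM in Con, 25.6 in Veh.LPS.0, 27.0 in DHA.LPS.0, 20.3 in Veh.LPS.1, 26.9 in DHA.LPS.1, 54.9 in Veh.LPS.4 and 34.5 in DHA.LPS.4. Before LPS its Veh and DHA libraries lay within counting error of each other, with a DHA to Veh ratio of 1.06 (interval 0.980 to 1.14). The clearest gap between treatments was at 4 h, where Veh.LPS.4 was the higher. Thinned cells with a UMI of Ifi204 made up 20.9% of Con. With vehicle they made up 35.9% at 0 h, 31.6% at 1 h and 58.1% at 4 h. With DHA they made up 37.5%, 34.6% and 42.6% at those hours.

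Ifi203, which encodes another HIN-200 protein, stood at 35.2 CPM in Con, 123 in Veh.LPS.0, 181 in DHA.LPS.0, 86.3 in Veh.LPS.1, 156 in DHA.LPS.1, 235 in Veh.LPS.4 and 145 in DHA.LPS.4. Its DHA libraries fell over the hours, with DHA.LPS.4 against DHA.LPS.0 at a ratio of 0.801 (0.767 to 0.836). The Veh libraries dipped at 1 h and were highest at 4 h. Thinned cells with a UMI of Ifi203 made up 46.0% of Con. With vehicle they made up 85.2% at 0 h, 73.8% at 1 h and 86.8% at 4 h. With DHA they made up 90.1%, 82.9% and 71.8% at those hours. Ifi207 was at 12.4 CPM in Con, 44.3 in Veh.LPS.0, 62.4 in DHA.LPS.0, 59.6 in Veh.LPS.1, 91.1 in DHA.LPS.1, 170.2 in Veh.LPS.4 and 67.8 in DHA.LPS.4. It was the member whose Veh.LPS.4 library stood farthest above DHA.LPS.4 among those in at least 25% of cells. Thinned cells with a UMI of Ifi207 made up 18.0% of Con. With vehicle they made up 52.0% at 0 h, 59.9% at 1 h and 84.9% at 4 h. With DHA they made up 62.0%, 73.2% and 57.9% at those hours.

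Mndal, a relative of human MNDA, was at 93.5 CPM in Con, 204 in Veh.LPS.0, 226 in DHA.LPS.0, 165 in Veh.LPS.1, 212 in DHA.LPS.1, 374 in Veh.LPS.4 and 284 in DHA.LPS.4. It was present in most cells everywhere, with a UMI in 80.3% of thinned Con cells and 92.5% to 96.8% of the cells of the other libraries. Ifi211 stood at 2.90 CPM in Con, 5.96 in Veh.LPS.0, 6.77 in DHA.LPS.0, 6.31 in Veh.LPS.1, 8.08 in DHA.LPS.1, 16.5 in Veh.LPS.4 and 13.5 in DHA.LPS.4. Both libraries of 4 h were above all the others for this gene.

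Ifi209 and Ifi205 were sparse. Ifi209 ranged from 0.477 CPM in Con to 8.0 in Veh.LPS.4 and was found in under 25% of the cells of every library. Ifi205, another MNDA-like gene, gave 4 UMIs in Con, 3 in Veh.LPS.0, 1 in DHA.LPS.0, 13 in Veh.LPS.1, 9 in DHA.LPS.1, 19 in Veh.LPS.4 and 6 in DHA.LPS.4, too few to compare DHA with vehicle. No other cell type was present in which free RNA could be measured, so the part of free RNA in such low shares was not tested.

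The first comparison asked how the family stood after 24 h in low serum with BSA, before LPS or DHA. A gene was tested where its UMIs reached 25% of cells in 1 of the 2 libraries or more, and was counted as higher or lower where the CPM differed by more than 1.5-fold. The 25% limit was read on unthinned counts. Of the 8 members, 5 were tested in Veh.LPS.0 against Con and 5 were higher. Over all genes 9.31% were higher and 7.76% lower. Ifi202b was 6.86-fold higher (6.24 to 7.57), Ifi207 3.59-fold, Ifi203 3.49-fold, Mndal 2.18-fold and Ifi204 2.07-fold. Ifi202b was tested through Veh.LPS.0 alone, with a UMI in 46.2% of its cells against 11.8% of Con. For Ifi202b the limit favoured a higher call. Ifi209 and Ifi211 fell under the share limit, with ratios of 5.52 (4.15 to 7.43) and 2.06. Serum, BSA and the 24 h of culture changed together here and cannot be told apart.

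The second set of comparisons asked what LPS did in each medium. After 1 h with vehicle none of 5 tested members passed (4.15% of all genes were higher and 4.24% lower), and log2 ratios lay between -0.51 for Ifi203 and 0.43 for Ifi207. After 4 h all 6 tested members were higher, against 10.2% of all genes higher and 38.3% lower. Ifi207 was 3.84-fold higher, Ifi202b 3.57-fold, Ifi211 2.76-fold, Ifi204 2.15-fold, Ifi203 1.91-fold and Mndal 1.83-fold. Ifi211 was tested through Veh.LPS.4 alone, with a UMI in 54.6% of its cells against 20.3% of Veh.LPS.0. For this gene the limit favoured a higher call. Ifi209, under the share limit, was at a ratio of 3.04 (2.61 to 3.55). The median log2 ratio of all tested genes was -0.36 at 4 h, and with edgeR's trimmed mean scaling it was 0.07, which moved the higher share of all calls from 21.1% to 50.6%. The 6 members were higher under both scalings, but trimmed mean scaling raised every log2 ratio here by the same amount. It could therefore not undo a higher call. With trimmed mean scaling 21.6% of all genes were higher and 21.1% lower.

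**Figure D2:**
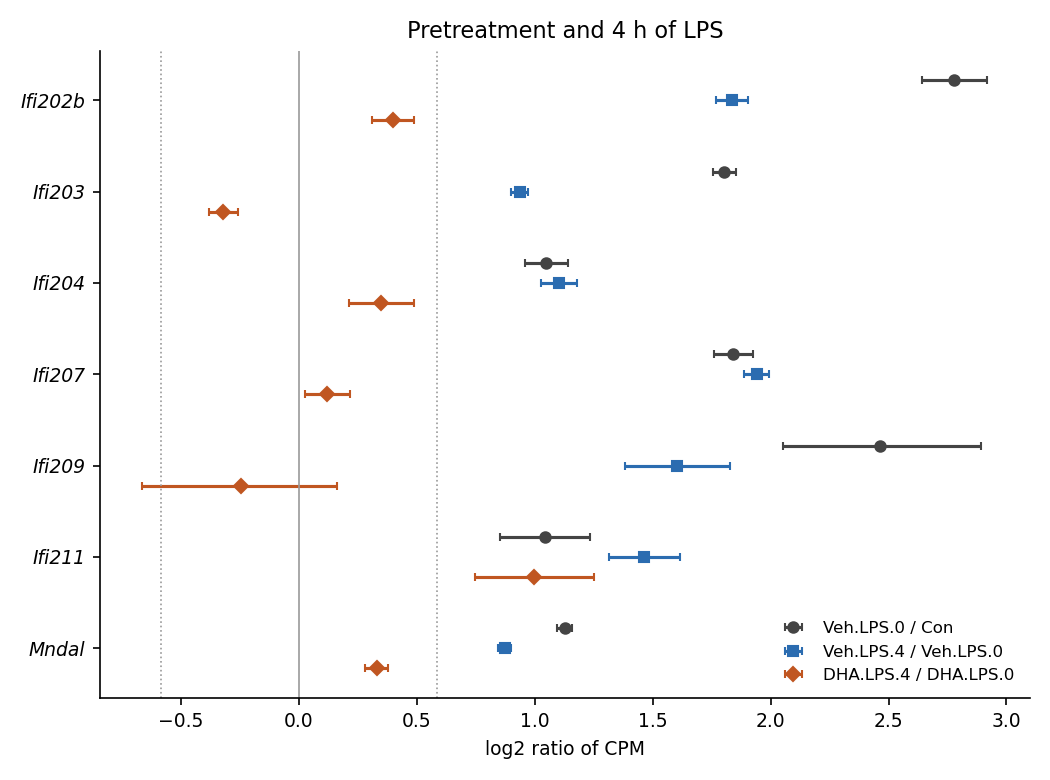
log2 ratio of CPM for the 7 members with enough UMIs, in Veh.LPS.0 against Con (grey circles), Veh.LPS.4 against Veh.LPS.0 (blue squares) and DHA.LPS.4 against DHA.LPS.0 (orange diamonds), with exact 95% intervals for counting error and dotted lines at 1.5-fold. Every circle and square is to the right of the upper line, and of the diamonds the one for Ifi211, a ratio of 2.0, is.

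In DHA-treated cells fewer members passed the limit at 4 h. After 1 h none of the 6 tested did, with 4.66% of all genes higher and 4.97% lower. After 4 h 1 of 6 was higher, Ifi211 at a ratio of 2.0, while 9.64% of all genes were higher and 33.6% lower. Ifi202b was at a log2 ratio of 0.40, Ifi204 at 0.35, Mndal at 0.33, Ifi207 at 0.12 and Ifi203 at -0.32. This count depended on the scaling. With trimmed mean scaling 4 members were higher, Ifi211, Ifi202b, Ifi204 and Mndal, and Ifi203 was at -0.02, while the median of all genes moved from -0.29 to 0.01 and the higher share of calls from 22.3% to 46.6%. Of all genes 18.3% were then higher and 21.0% lower. The DHA libraries started from higher levels than the Veh libraries. Both kinds of LPS comparison rest on 1 starting library each, which the DHA against Veh comparison at 0 h shares.

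The third set of comparisons set DHA against vehicle at matched hours. Before LPS all 6 tested members had a ratio above 1, and 1 passed the limit, Ifi202b at 2.42 (2.29 to 2.56). For all genes 1.08% were higher and 0.949% lower. Ifi203 was at 1.47 (1.43 to 1.52) and Ifi207 at 1.41 (1.34 to 1.48), short of the limit. The intervals of Ifi204 (0.980 to 1.14) and Ifi211 (0.972 to 1.32) include 1. Ifi211 was tested through DHA.LPS.0 alone, with a UMI in 26.1% of its cells against 20.3% of Veh.LPS.0. Ifi209, under the share limit, was at 1.57 (1.27 to 1.93).

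After 1 h of LPS 3 of 5 tested members were higher with DHA, with 1.33% of all genes higher and 1.73% lower. Ifi202b was at 2.91 (2.73 to 3.1), Ifi203 at 1.81 (1.75 to 1.88) and Ifi207 at 1.53 (1.46 to 1.60). Ifi204 was at 1.32 and Mndal at 1.29. Each of these genes also had a ratio above 1 before LPS, though the interval of Ifi204 at 0 h, 0.980 to 1.14, includes 1.

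After 4 h the order was the opposite. Here 3 of 6 tested members were lower with DHA, beside 2.22% of all genes higher and 2.42% lower. Ifi207 was at a ratio of 0.398 (0.377 to 0.421), Ifi203 at 0.617 (0.594 to 0.641) and Ifi204 at 0.628 (0.579 to 0.679). Mndal was at 0.760, Ifi211 at 0.821 and Ifi202b at 0.894 (0.848 to 0.941), all short of the limit. With trimmed mean scaling the higher share of all calls at this hour went from 47.8% to 26.8%. Of all genes 1.25% were then higher and 3.42% lower. That scaling lowered every log2 ratio here by the same amount, so the same 6 ratios had to stay below 1.

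**Figure D3:**
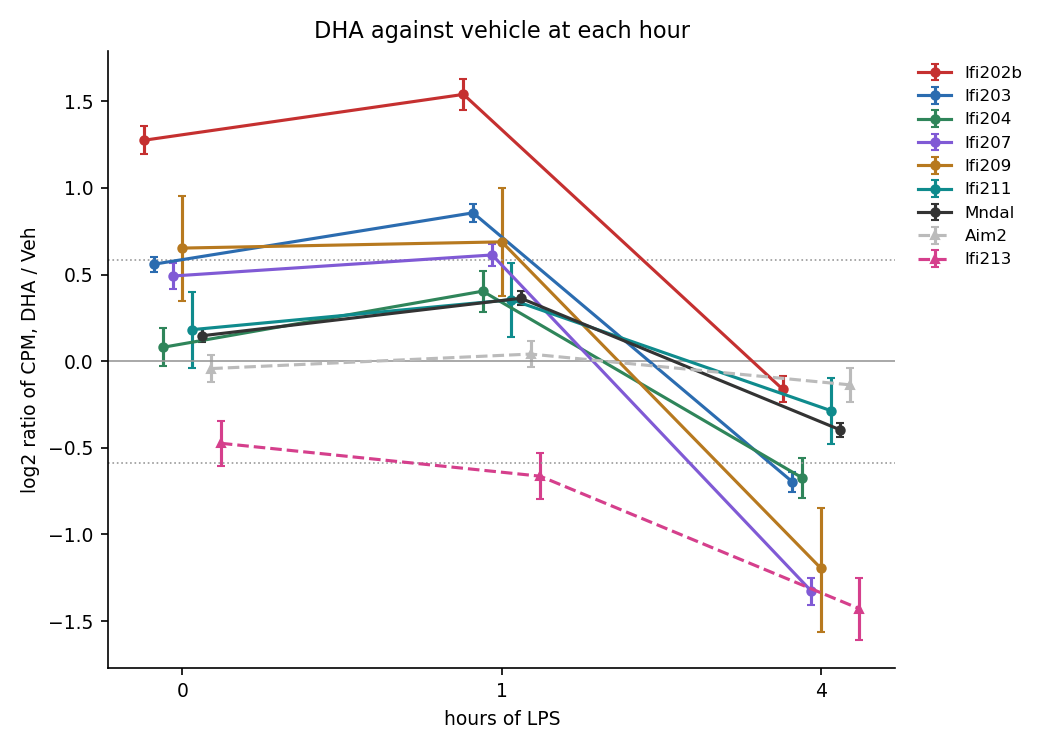
log2 ratio of CPM, DHA over Veh, at 0, 1 and 4 h of LPS for 7 members (solid lines) and for Aim2 and Ifi213 of the same locus (dashed lines), with exact 95% intervals for counting error and dotted lines at 1.5-fold. The member lines are above 0 at 0 and 1 h and below it at 4 h, Ifi202b from 1.28 and 1.54 to -0.16, while Aim2 stays near 0 and Ifi213 is below 0 throughout.

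From 0 to 4 h the DHA over Veh log2 ratio fell by 1.82 for Ifi207, by 1.44 for Ifi202b, by 1.26 for Ifi203, by 0.75 for Ifi204, by 0.54 for Mndal and by 0.47 for Ifi211. Ifi202b thus went from above vehicle to slightly below it, and Ifi207 went from above vehicle to well below it.

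The barcode filter touched these ratios. With all deposited barcodes kept, the DHA over Veh log2 ratio of Ifi202b was 0.88 at 0 h and 1.16 at 1 h, against 1.28 and 1.54 in the filtered cells, and no member passed at 1 h, where Ifi202b was under the share limit. At 1 h 2.42% of all genes were then higher and 10.7% lower. Ifi204 was then at -0.18, Ifi211 at -0.12 and Mndal at -0.01 at 0 h, below vehicle and not above it. Scaled by the UMIs outside mitochondrial genes, the same barcodes gave 1.07 at 0 h and 1.35 at 1 h, with 2 members past the limit at each of those hours, 4 lower at 4 h, and those 3 genes above vehicle at 0 h. Over all genes 4.18% were then higher at 0 h, 5.45% higher at 1 h and 2.85% lower at 4 h. The barcodes that failed the filter held Ifi202b at 18.9 CPM in Veh.LPS.0 and 27.4 CPM in DHA.LPS.0. At 4 h they held it at 64.8 CPM in Veh.LPS.4 and 45.0 in DHA.LPS.4. With all deposited barcodes kept, its log2 ratio at 4 h was -0.55, against -0.16 in the filtered cells.

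Neighbouring genes of the locus did not all share this pattern. Aim2, the inflammasome receptor for cytosolic DNA, stood between 50.1 and 61.3 CPM in all 7 libraries and passed the limit in none of the 8 comparisons. Ifi213 was at 6.77 CPM in Con, 23.9 in Veh.LPS.0, 17.2 in DHA.LPS.0, 27.7 in Veh.LPS.1, 17.5 in DHA.LPS.1, 36.6 in Veh.LPS.4 and 13.6 in DHA.LPS.4. It was thus below vehicle with DHA at every hour, with ratios of 0.720 (0.657 to 0.788), 0.631 (0.575 to 0.692) and 0.371 (0.328 to 0.419), where the tested members were above it at 0 and 1 h. Ifi208 and Ifi214 were sparse, in under 25% of cells everywhere,. Ifi208 was at a DHA over Veh ratio of 6.30 (3.47 to 11.9) at 0 h, 8.42 (4.25 to 17.9) at 1 h and 0.961 (0.518 to 1.71) at 4 h. Ifi214 was at 1.5 (0.766 to 2.85), 3.34 (1.86 to 6.05) and 0.404 (0.213 to 0.714), and at 0 h its interval includes 1.

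The number of members seen in a cell was lowest in Con and highest in Veh.LPS.4, as was the summed level. Among the DHA libraries DHA.LPS.4 had the highest summed level, 636 CPM, and the fewest members per cell. At 20000 UMIs per cell a mean of 1.78 of the 8 members was detected per cell in Con, 3.14 in Veh.LPS.0, 3.48 in DHA.LPS.0, 2.99 in Veh.LPS.1, 3.46 in DHA.LPS.1, 4.24 in Veh.LPS.4 and 3.42 in DHA.LPS.4. Cells with 5 or more members made up 0.757% of Con, 12.4% of Veh.LPS.0, 20.9% of DHA.LPS.0, 9.66% of Veh.LPS.1, 21.1% of DHA.LPS.1, 45.7% of Veh.LPS.4 and 21.7% of DHA.LPS.4. The 3 DHA libraries were nearly level, and the Veh libraries spanned both sides of them.

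**Figure D4:**
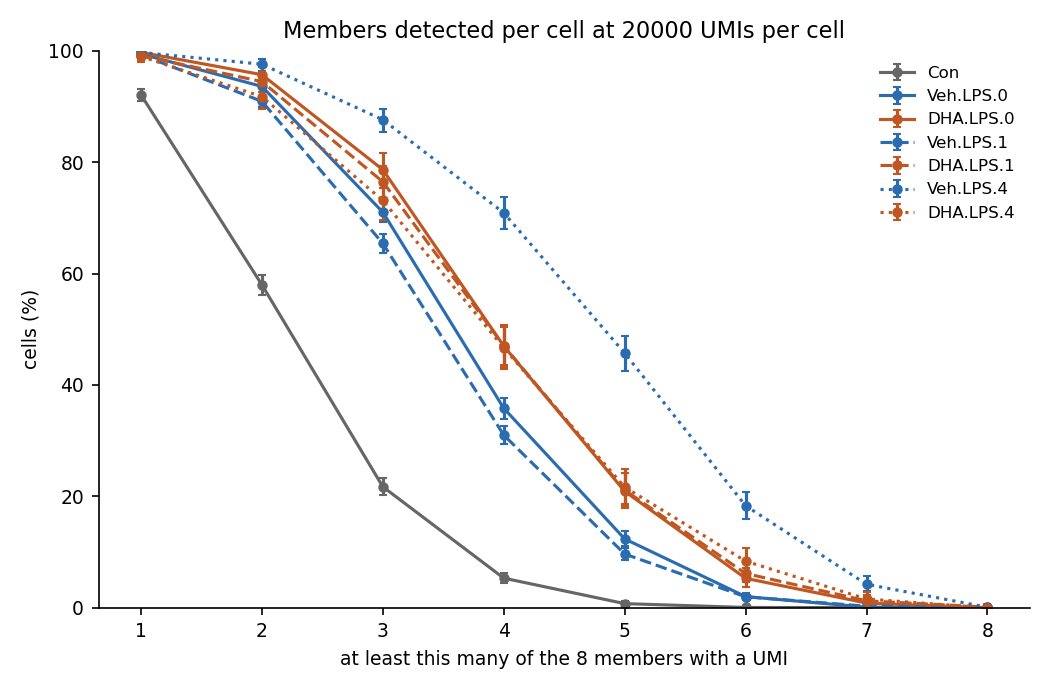
Percent of cells with at least the given number of the 8 members detected, after thinning to 20000 UMIs per cell, for the 7 libraries (grey Con, blue Veh, orange DHA; solid 0 h, dashed 1 h, dotted 4 h), with exact binomial 95% intervals. At 5 members the curves run from 0.757% in Con to 45.7% in Veh.LPS.4, with the 3 DHA libraries between 20.9% and 21.7%.

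The members were unevenly spread over cells. The 10% of cells with the most Ifi202b held 58.2% of its thinned UMIs in Veh.LPS.0, 60.3% in DHA.LPS.0, 64.3% in Veh.LPS.1, 58.8% in DHA.LPS.1, 46.4% in Veh.LPS.4 and 59.6% in DHA.LPS.4. By this share the DHA and Veh libraries were close at 0 h, with Veh higher at 1 h and DHA at 4 h. The share is also high where few cells hold a UMI, as in Con at 100%. It therefore does not by itself rank how uneven the libraries were. Cells with 5 or more Ifi202b UMIs made up 7.59% of DHA.LPS.0 (5.74% to 9.81%) and 1.33% of Veh.LPS.0 (0.917% to 1.86%). After 1 h the shares were 6.67% with DHA and 0.911% with vehicle, and after 4 h 11.3% with DHA and 14% with vehicle. The median cell had 0 Ifi202b UMIs in both libraries of 0 h and 1 in both of 4 h. The variance to mean ratio of thinned Ifi202b counts, which is 1 for pure counting noise, was 2.03 in Con, 2.30 in Veh.LPS.0, 6.03 in DHA.LPS.0, 2.76 in Veh.LPS.1, 4.89 in DHA.LPS.1, 4.72 in Veh.LPS.4 and 7.20 in DHA.LPS.4. This ratio also rises with the mean. For Ifi203 it was 1.95 in Veh.LPS.0 and 4.34 in DHA.LPS.0, and 7.05 in Veh.LPS.4 and 10.8 in DHA.LPS.4.

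Across cells, Ifi202b and Ifi203 went together with a Spearman rho of 0.21 in Veh.LPS.0, 0.43 in DHA.LPS.0, 0.57 in Veh.LPS.4 and 0.49 in DHA.LPS.4 (2481, 698, 993 and 692 cells). In Veh.LPS.4 the summed UMIs of 24 other interferon-induced genes followed Ifi207 with a rho of 0.60, Ifi203 with 0.54 and Ifi202b with 0.52. Cells of 1 library share its depth and RNA quality, members may share reads, and the counts per cell are sparse. These values are given as a description.

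Cells high in those 24 genes were therefore set apart, at over 17.4 thinned UMIs, the 99th percentile of Veh.LPS.0. They made up 27.3% of Veh.LPS.4 (271 of 993 cells) and 8.82% of DHA.LPS.4 (61 of 692), and 203 and 43 cells lay within 5 UMIs of the limit. With the limit at the 95th percentile, 8 UMIs, the shares were 52.7% and 19.9%. Before LPS the shares were 1.0% in Veh.LPS.0 and 3.30% in DHA.LPS.0 (2.1% to 4.91%), and after 1 h 1.20% in Veh.LPS.1 and 5.66% in DHA.LPS.1 (4.16% to 7.50%). DHA libraries thus held more such cells at 0 and 1 h and fewer at 4 h, as with the members.

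In Veh.LPS.4 the interferon-high cells held Ifi202b at 220 CPM against 54.1 in the other cells, a ratio of 4.07 (3.86 to 4.29). Ifi203 stood at 431 against 166 CPM, Ifi207 at 316 against 119 and Mndal at 563 against 307. The highest ratio of the 8 was that of Ifi209, at 23.9 against 2.38 CPM, a ratio of 10.0 (8.04 to 12.6). In DHA.LPS.4 the same split gave 326 against 64.2 CPM for Ifi202b and 503 against 111 for Ifi203.

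Among the cells under that limit, DHA over Veh at 4 h was 0.451 (0.422 to 0.481) for Ifi207, 0.669 for Ifi203, 0.726 for Ifi204 and 0.803 for Mndal. Ifi202b was on the other side of 1, at 1.19 (1.11 to 1.27), with 64.2 CPM in DHA.LPS.4 and 54.1 in Veh.LPS.4. At 0 h the ratio of Ifi202b in such cells was 2.22 (2.09 to 2.36) and at 1 h 2.57 (2.41 to 2.76). Ifi203 was at 1.42 and 1.66 at those hours, and Ifi204 at 0 h was at 0.99 (0.913 to 1.07).

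Genes of proliferation also moved with DHA. All 8 of them had a lower level with DHA at 0 and 1 h, with a median log2 ratio of -0.45 and -0.57. None was past the limit at 0 h. At 1 h 4 of the 8 were, against 1.73% of all genes lower. At 4 h 7 of the 8 were higher, with a median of 0.66, against 2.22% of all genes. Cells were therefore split at 23 thinned UMIs of these genes. At 0 h the DHA over Veh ratio of Ifi202b was 2.68 (2.51 to 2.88) in cells at or under that limit and 1.38 (1.23 to 1.55) in cells above it, and for Ifi203 it was 1.67 against 1.06. Ifi204 was at 1.22 in the low and 0.722 (0.625 to 0.830) in the high class. At 1 h Ifi202b was at 3.0 and 1.87, and Ifi207 at 1.39 and 1.46. Mndal at 0 h was at 1.23 in the low and 0.881 (0.843 to 0.922) in the high class, and Ifi211 at 1.42 and 0.698 (0.516 to 0.930). At 4 h Ifi207 was at 0.408 and 0.426 and Ifi203 at 0.653 and 0.570. The sparse Ifi209 was at 0.319 (0.230 to 0.433) in the low and 1.54 (0.909 to 2.61) in the high class at that hour. The part of proliferation in the DHA differences was not tested further.

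**Figure D5:**
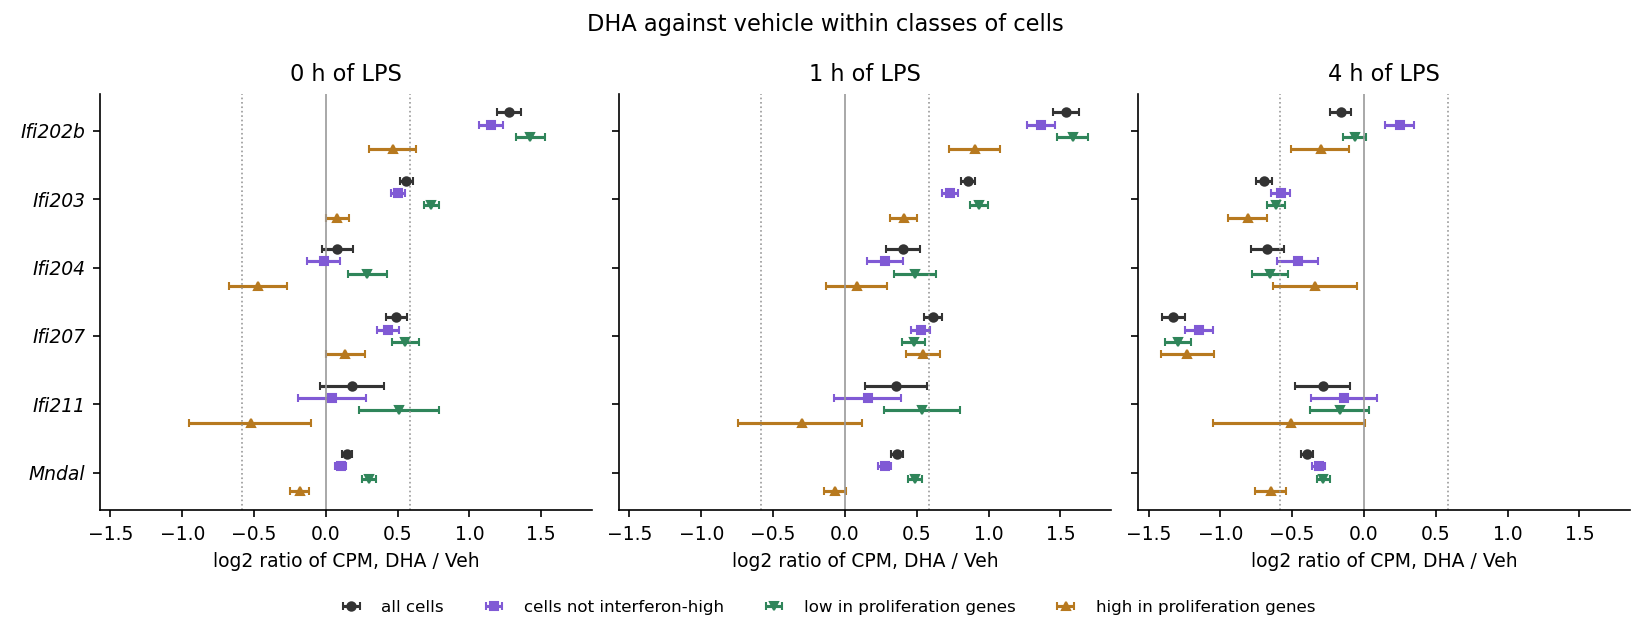
log2 ratio of CPM, DHA over Veh, for 6 members at 0, 1 and 4 h of LPS in all cells (black circles), cells not interferon-high (purple squares) and cells low (green triangles, point down) or high (ochre triangles, point up) in proliferation genes, with exact 95% intervals for counting error and dotted lines at 1.5-fold. At 0 h the ratio of Ifi202b is 2.68 in the low and 1.38 in the high class, and at 4 h Ifi202b crosses 0 in cells not interferon-high.

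Of 24 other genes of DNA sensing, 19 were tested with DHA at 0 and at 1 h, and none passed the limit, beside the small shares of all genes given above for those hours. At 4 h 2 of 18 were lower with DHA, against 2.42% of all genes, Adar, an editor of double-stranded RNA, at 0.619 (0.560 to 0.684) and Mb21d1, which encodes the DNA sensor cGAS, at 0.651 (0.604 to 0.702). With vehicle, 4 h of LPS left 2 of 19 higher, Ikbke, an IRF3 kinase, at 3.26-fold and Adar at 1.87-fold, and 9 lower, among them Xrcc6 at a ratio of 0.227 and Prkdc at 0.298, both of DNA end joining. Among all genes 10.2% were higher and 38.3% lower in that comparison, and 21.6% and 21.1% with trimmed mean scaling.

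Interferon itself and the genes it induces were read beside the members. Ifnb1, which encodes interferon beta, gave 0 UMIs in Veh.LPS.0, 8 in Veh.LPS.1 and 197 in Veh.LPS.4. With DHA it gave 3 in DHA.LPS.0, 1 in DHA.LPS.1 and 11 in DHA.LPS.4. These counts are not scaled to library size. At each hour the Veh library held more UMIs in total, at 4 h 58598526 against 22045775 with DHA. Of the 24 interferon-induced genes in the files, 3 of 7 tested were higher with DHA at 0 h and 1 of the 7 had a ratio below 1. Over all genes 1.08% were higher at that hour. At 1 h 4 of 6 were higher, against 1.33% of all genes. At most 3 genes of the list reached 25% of cells in Veh.LPS.0, and at most 3 in Veh.LPS.1. The rest of the 7 and of the 6 were tested through the DHA library alone, which favours genes higher with DHA. At 4 h 13 of 15 were lower, against 2.42% of all genes. At most 9 genes of the list reached 25% of cells in DHA.LPS.4. The rest of the 15 were tested through Veh.LPS.4 alone, which favours genes lower with DHA. The limit used unthinned counts, and the median cell had 56239 UMIs in Veh.LPS.4 and 29631 in DHA.LPS.4. Oasl1, a 2'-5' oligoadenylate synthetase-like gene, was 3.01-fold higher with DHA at 0 h and Irf7, which drives interferon genes, 2.07-fold. At 4 h Ifit1 was at a DHA over Veh ratio of 0.189 and Dhx58 at 0.252. Of the 8 genes of interferon signalling, 3 of 7 tested were lower at 4 h with DHA, against the same 2.42%. Among them was Stat2, part of the signal from the interferon receptor, at 0.368.

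Over the 7 libraries the members other than the sparse Ifi205 and Ifi209, which were left out, went together. Pearson's r of log2(CPM + 1) ran from 0.84 for Ifi203 and Ifi211 to 0.99 for Ifi204 and Mndal. Of 8758 genes outside the locus, the closest to Ifi202b were Gm12606, Fndc3a and Trib3 (r of 0.989 to 0.991), and the closest to Ifi203 were Irf7, Fndc3a and Lgals3bp. Ifi204 was closest to Gm47507, Irf9 and Slfn5, Ifi207 to Slfn4, Krit1 and Rassf8, Ifi211 to Fam19a2, Ptpn22 and AC168977.1, and Mndal to Gm47507, Cd9 and Rassf8. These are 7 points that share the treatments, and many of the genes searched follow LPS or serum.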

How the data were processed

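The deposited files hold whole UMI counts per gene and cell, which the authors made with Cell Ranger; the labels' processing notes give version 3.1.0 and mm10, and the methods text names another version. The 8 members and all gene lists were chosen with earlier results of these data known. Barcodes with over 20000 UMIs, at least 2000 genes and under 20% mitochondrial UMIs were kept, as in the methods. Counts were summed per library and given as CPM (scaled to 1000000 UMIs). Ratios have exact binomial, levels exact Poisson and shares Clopper-Pearson 95% intervals, which cover counting error only; 1 library per condition allowed no test. Shares given beside the levels were read after thinning each cell to 20000 UMIs (seed 1). A gene was tested where its UMIs reached 25% of cells in 1 library of the pair or more, and counted past 1.5-fold. This limit used unthinned counts, so it depends on the depth of the libraries. The text names all members, and of each list the tested genes past the limit with the highest and lowest ratios, up to 2 each way, and genes of the locus; Ifnb1 was chosen after its values were seen, and 1 listed gene is not reported here. No doublet caller was run; 1 alternative left out the 5% of cells with the most UMIs. Alternatives are given in the closing section, and 3 of them (scaling by UMIs outside mitochondrial genes with and without the cell filter, and cells not interferon-high) were added after the data were seen. Scripts (Python 3.11.15, SciPy 1.17.1, edgeR 4.0.16) were tested on simulated data. A description of promoter and protein sequences was not run here.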

Additional observations from a re-analysis of the deposited data

Results flagged for a closer look

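The DHA over Veh ratio of 2 members passed 1.5-fold in opposite directions at 1 and 4 h of LPS. For Ifi203 the log2 ratio was 0.86 at 1 h and -0.70 at 4 h. For Ifi207 it was 0.61 at 1 h and -1.33 at 4 h. Each value compares 1 library with 1 library and the difference between the hours was not tested. With all deposited barcodes the log2 ratios at 1 h were 0.58 for Ifi203 and 0.56 for Ifi207, on the same side of 0 and short of the limit. Those at 4 h were -0.98 and -1.45. The ratio of Ifi207 at 1 h had an interval of 1.46 to 1.60, which includes the limit. In cells not interferon-high it was 1.44 (1.37 to 1.51). In cells low and high in proliferation genes it was 1.39 and 1.46, and that of Ifi203 was 1.91 and 1.33.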

How the results depend on the processing

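No called member changed direction under any alternative. In DHA.LPS.1 against DHA.LPS.0, where none passed, 1 member passed with trimmed mean scaling, with all deposited barcodes under both scalings, and without the 5% of cells with the most UMIs. The share of all genes higher was 4.66% in the main setting. It was 5.92% with trimmed mean scaling, 6.13% and 5.80% with all deposited barcodes, and 4.67% without the top 5% of cells. In DHA.LPS.4 against DHA.LPS.0 the count of 1 became 4 with trimmed mean scaling and 0 with all deposited barcodes (both scalings), with a UMI required in 50% of cells and with a ratio over 2. The share of all genes higher was 9.64% in the main setting and 18.3% with trimmed mean scaling. It was 8.67% and 8.49% with all deposited barcodes, 9.89% with 50% of cells and 4.73% with a ratio over 2. In DHA.LPS.0 against Veh.LPS.0 the count of 1 became 2 under 10% mitochondrial UMIs, with a UMI in 5% of cells and with all barcodes scaled by UMIs outside mitochondrial genes. The share of all genes higher went from 1.08% to 1.21%, 2.04% and 4.18% in these settings. In DHA.LPS.1 against Veh.LPS.1 the count of 3 became 0 with all deposited barcodes and 1 with a ratio over 2. The share of all genes higher went from 1.33% to 2.42% and 0.308%. With all deposited barcodes 10.7% were lower. In DHA.LPS.4 against Veh.LPS.4 the count of 3 became 5 with all deposited barcodes and 1 with a ratio over 2. The share of all genes lower went from 2.42% to 5.29% and 0.873%. The causes were not tested. Trimmed mean scaling moved the median log2 ratio of all genes from -0.12 to -0.01 in DHA.LPS.1 against DHA.LPS.0 and from 0.08 to -0.05 in DHA.LPS.4 against Veh.LPS.4, and the higher share of calls from 49.5% to 61.3% in Veh.LPS.1 against Veh.LPS.0 and from 48.4% to 63.9% in DHA.LPS.1 against DHA.LPS.0. It turned the sign of small log2 ratios in DHA.LPS.1 against DHA.LPS.0, Ifi202b from -0.08 to 0.03 and Mndal from -0.09 to 0.02. No paired analysis was possible because each condition has 1 library.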
